A study of Rattus norvegicus with 71 samples.

Results

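Guanine deaminase and 6 enzymes that recover or degrade purine bases and nucleosides were followed in the brains of 71 rat offspring at postnatal day 2. The 7 genes, Gda, Pnp, Hprt1, Aprt, Adk, Ada and Xdh, were chosen by symbol among the 17494 genes of the count table, and all 7 symbols were found. All animals were labelled wild type Sprague-Dawley rats, and RNA came from a coronal brain slice that held the hippocampal formation with nearby cortex and subcortical tissue. The dams of all groups received adjuvant. Dams of the 24 saline controls (7 litters) received it with saline, and dams of the 47 MARA-AB exposed offspring (20 litters) received it with peptides of 2 or more antigens, so that these offspring were exposed to maternal autoantibodies before birth. The exposed groups are named for their antigens: CRMP1+CRMP2 (8 animals, 4 litters), LDHA/B+CRMP1+STIP1 (25 animals, 9 litters), CRMP1+GDA (6 animals, 3 litters) and STIP1+NSE (8 animals, 4 litters). Guanine deaminase, the product of Gda, is itself an antigen, in the CRMP1+GDA group alone.

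Cells make purine nucleotides from small precursors or rebuild them from free bases and nucleosides. Purine nucleoside phosphorylase (Pnp) frees guanine and hypoxanthine from their nucleosides, HPRT (Hprt1) and APRT (Aprt) join bases to phosphoribosyl pyrophosphate, and adenosine kinase (Adk) phosphorylates adenosine. Guanine deaminase (Gda) turns guanine into xanthine and so takes it out of salvage, adenosine deaminase (Ada) turns adenosine into inosine, and xanthine dehydrogenase (Xdh) makes uric acid. Brain depends heavily on salvage, and loss of HPRT in people causes Lesch-Nyhan disease. In neurons guanine deaminase is also known as cypin, a cytosolic protein that binds the postsynaptic scaffold PSD-95 and promotes dendrite branching.

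Sample titles fall into 2 series, which in make-up match the batches that the study processed and sequenced separately. Of the 28 animals of the IgG/RNA/FcRn series, 12 were controls and 16 had the LDHA/B+CRMP1+STIP1 pattern. The 43 of the MAR_C3 series comprised 12 controls, 9 animals with that pattern and all animals with the other 3. Libraries held 24880182 to 36234952 counts. Markers of cortical and hippocampal neurons were present in every group, with a summed level between 669 and 2304 CPM (counts scaled to a fixed library size) per animal. Regional markers differed between the title series. In controls the median summed level of 6 thalamus and habenula markers was 77.5 CPM in the IgG/RNA/FcRn series and 787 CPM in the MAR_C3 series, and that of 8 striatum markers was 550 and 166 CPM.

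Per exon length, Aprt was the most abundant of the 7 genes and Xdh the least. The median level over 71 animals was 77.0 RPKM (CPM per kilobase of exon) for Aprt, 42.1 for Hprt1, 41.5 for Gda, 41.3 for Pnp, 25.6 for Adk, 3.40 for Ada and 0.140 for Xdh. Neighbours in this order differed in the same direction in 71 of 71 animals, except that Pnp exceeded Adk in 66, Hprt1 exceeded Gda in 34 and Gda exceeded Pnp in 35. The levels of Hprt1, Gda and Pnp could therefore not be ordered. Xdh had between 1 and 36 reads per library and reached 1 CPM in 5 of 71 animals, so its values rest on few reads.

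The genes lie on different chromosomes, apart from Pnp and Adk, which share chromosome 15. In the build rn7 of the counts, Gda spans 218906852 to 218982360 of chromosome 1, on the minus strand, in 14 exons. Hprt1 spans 132736175 to 132768149 of chromosome X in 9 exons. The 250 bases before the gene start are given below for Gda, which had the widest fold range of the 6 genes above 1 CPM in every animal, for Hprt1 and Pnp, whose levels per length could not be told from that of Gda, and for Adk, which differed most between the title series. They are RefSeq sequences of the build GRCr8 and are not coordinates of rn7. All 7 genes were matched. Capitals mark matches to the GC box GGGCGG, the CCAAT box CCAAT and the TATA box TATAAA, searched on both strands.
Gda, chr1:228408902-228409151, minus strand: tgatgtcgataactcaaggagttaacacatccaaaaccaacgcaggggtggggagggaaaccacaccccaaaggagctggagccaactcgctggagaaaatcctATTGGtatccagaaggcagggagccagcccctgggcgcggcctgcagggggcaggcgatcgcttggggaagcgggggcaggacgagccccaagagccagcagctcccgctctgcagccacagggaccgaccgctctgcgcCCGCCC
Hprt1, chrX:137655494-137655743, plus strand: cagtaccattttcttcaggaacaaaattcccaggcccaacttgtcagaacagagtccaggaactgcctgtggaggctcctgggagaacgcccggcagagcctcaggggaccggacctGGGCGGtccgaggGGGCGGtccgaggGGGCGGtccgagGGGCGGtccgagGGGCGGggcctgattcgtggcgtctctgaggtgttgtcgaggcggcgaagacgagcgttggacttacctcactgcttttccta
Pnp, chr15:26643897-26644146, plus strand: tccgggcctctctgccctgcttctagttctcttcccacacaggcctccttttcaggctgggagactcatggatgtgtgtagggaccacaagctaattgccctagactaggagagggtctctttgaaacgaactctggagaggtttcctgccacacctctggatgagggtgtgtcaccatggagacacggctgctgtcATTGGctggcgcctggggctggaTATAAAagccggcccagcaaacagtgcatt
Adk, chr15:3295746-3295995, minus strand: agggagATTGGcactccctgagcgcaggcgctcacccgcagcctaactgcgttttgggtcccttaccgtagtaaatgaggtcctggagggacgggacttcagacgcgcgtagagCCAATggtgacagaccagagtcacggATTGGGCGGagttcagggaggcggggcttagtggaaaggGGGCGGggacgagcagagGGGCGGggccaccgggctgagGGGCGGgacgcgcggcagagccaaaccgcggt
Hprt1 held 5 GC boxes and Adk held 4, beside 3 CCAAT boxes, 1 of which shares letters with a GC box. Gda held 1 GC box and 1 CCAAT box. Pnp held no GC box and was the only one of these 4 with a TATA box, which began 30 bases before the gene start. Of 33469 rat promoter windows of this length, 30.5% held a GC box, 34% a CCAAT box and 12.9% a TATA box. A match describes the letters and not a binding site.

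**Figure D1:**
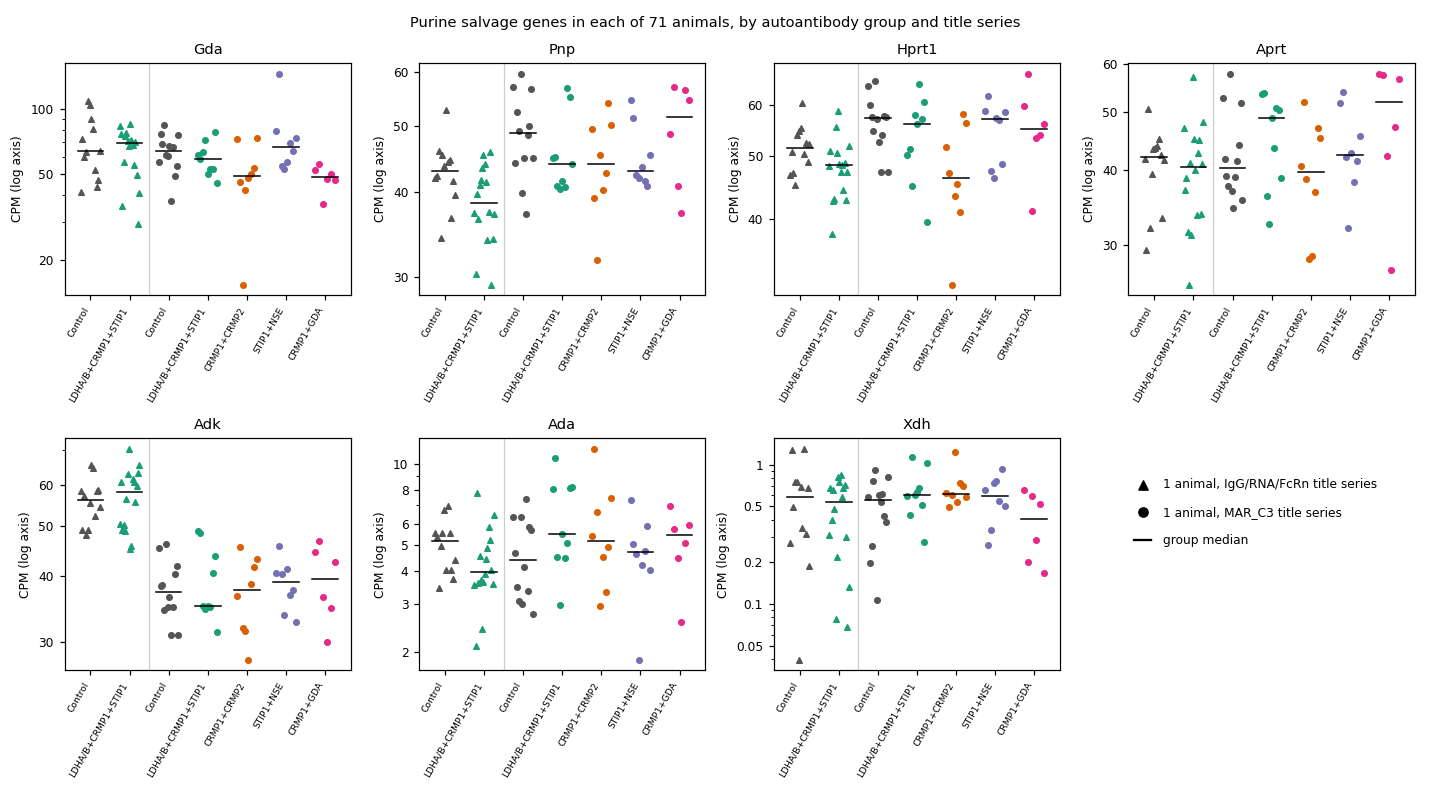
Level of each gene (CPM, log axis) in every animal, by autoantibody group, with triangles for the IgG/RNA/FcRn title series left of the grey line, circles for the MAR_C3 series and a black line at each group median. Gda spreads from 15.5 to 145 CPM, and Adk is higher in the IgG/RNA/FcRn series, where its lowest value is 45.2 CPM.

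Gda varied more between animals than Hprt1, Pnp, Aprt and Adk, the members nearest to it in CPM. It ran from 15.5 to 145 CPM, a 9.38-fold range, against 2.11-fold for Hprt1, 2.04-fold for Pnp, 2.25-fold for Aprt and 2.54-fold for Adk. Its SD on the log2 scale was 0.46, at percentile 81.2 of 12477 expressed genes, while that of Hprt1 was 0.20 and that of Pnp 0.23. Ada was more variable on this scale, with an SD of 0.50 at a median of 4.75 CPM. Gda was set out by animal because it was known to have outlying animals, so its wide range was known beforehand.

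A few animals and litters carried the ends of the Gda range. The highest value, 145 CPM, was STIP1+NSE replicate 2, a female of litter 9_2, whose male littermate had 78.9 CPM. The lowest, 15.5 CPM, was CRMP1+CRMP2 replicate 3, a male of litter 9_6, whose male littermate had 42.3 CPM. In the IgG/RNA/FcRn series the control litter IgG2 had 80.2, 89.8, 103 and 109 CPM. All 4 were above the other 8 controls of that series, which ran from 41.1 to 72.7 CPM. The lowest animals of the series were LDHA/B+CRMP1+STIP1 replicate 24 (29.4 CPM, litter RNA2) and replicate 12 (35.7 CPM, litter IgG3).

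Litters differed for most of the enzymes. The share of variance between litters (intraclass correlation of log2 CPM over 27 litters) was 0.54 for Hprt1, 0.49 for Pnp, 0.45 for Adk, 0.43 for Gda, 0.36 for Aprt, 0.27 for Ada and -0.15 for Xdh. The median over all expressed genes was 0.27. Means of each exposure group within its title series were removed first, so these shares are of differences between litters of a group.

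**Figure D2:**
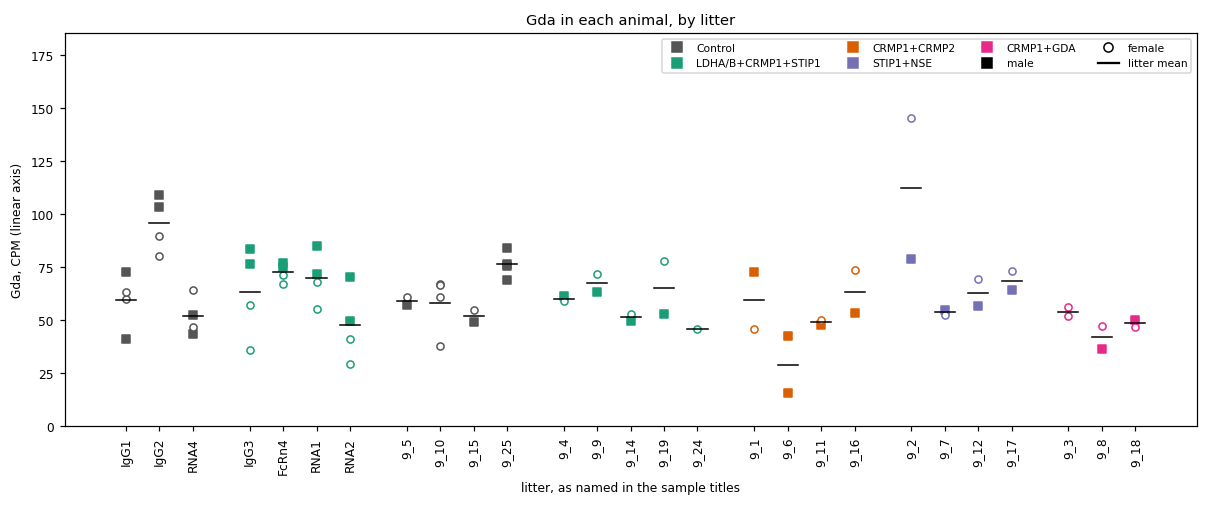
Gda (CPM, linear axis) in each animal, by litter, with filled squares for males, open circles for females, colours for the groups and a black line at the litter mean. Litter means run from 28.9 CPM in litter 9_6 to 112 CPM in litter 9_2, and the 4 animals of control litter IgG2 lie between 80.2 and 109 CPM.

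Animals exposed to antibodies against guanine deaminase had Gda at the lower end of the control range. The 6 CRMP1+GDA animals had 52.0 and 55.9 CPM in litter 9_3, 36.5 and 47.2 CPM in litter 9_8, and 50.04 and 46.9 CPM in litter 9_18. The 12 controls of the same title series had 37.6 to 83.7 CPM with a median of 63.6, and those of the other series 41.1 to 109 CPM, also with a median of 63.6. All 6 CRMP1+GDA animals lay below the median of their series' controls, but only 1 lay below their range. A level under that median was not particular to this group. In the same series, 7 of 9 animals with the LDHA/B+CRMP1+STIP1 pattern were also under it, as were 3 of 8 in STIP1+NSE. So were 6 of 8 in CRMP1+CRMP2, where the median was 48.8 CPM, against 48.6 in CRMP1+GDA. Among these controls, litter 9_25 (4 males) averaged 76.2 CPM, and litters 9_5, 9_10 and 9_15 averaged 58.9, 57.9 and 51.7 CPM. The fitted log2 fold change of Gda against all 24 controls was -0.55 ± 0.18 (SE, n = 6 and 24). The edgeR quasi-likelihood test with 1 surrogate variable gave p = 0.00556 and an adjusted p of 1.00. Within the MAR_C3 series, with sex as a covariate, it was -0.36 ± 0.13 (p = 0.0134, adjusted p = 0.956 by edgeR). Over 13 alternatives (edgeR, DESeq2 or limma) the unadjusted p ran from 0.000303 to 0.0859, and the adjusted p was at least 0.359. These included counts summed per litter and litter as a random effect. None of them left out a single control litter of the MAR_C3 series. The summed caudal Hox markers reached 119 CPM in a CRMP1+GDA animal, against at most 0.608 CPM in the controls of the same series. They also reached 82.1 CPM in LDHA/B+CRMP1+STIP1, 56.4 in CRMP1+CRMP2 and 8.44 in STIP1+NSE of that series, and 38.6 in an IgG/RNA/FcRn control. The cortical and hippocampal neuron markers of the CRMP1+GDA animals ran from 669 to 1460 CPM, against 995 to 1423 CPM in the MAR_C3 controls. The part of these markers in the level of Gda was not tested.

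No gene passed FDR < 0.1 in CRMP1+GDA, so 0 of 7 members were called against a background of 0% of 12641 genes. At an unadjusted p under 0.05 the fit had 205 higher and 257 lower genes, and DESeq2 also called 0 genes. Without litter 9_8 these were 928 higher and 930 lower genes, with 2 genes called, and the fit with title series and sex called 5 genes. Gda was the only member under that unadjusted threshold. The log2 fold changes of the other 6 ran from -0.38 (Xdh, SE 0.46) to 0.18 (Aprt, SE 0.13). Xdh passed the filter there only through controls. The median over the 7 members was -0.019, beside 0.0020 over all genes tested.

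The other exposed animals of the same title series gave a second reference. Those 25 animals had Gda between 15.5 and 145 CPM, a range that holds all 6 CRMP1+GDA animals. Its lower end is CRMP1+CRMP2 replicate 3 alone, and the next lowest had 42.3 CPM, above the CRMP1+GDA animal at 36.5 CPM. The log2 fold change of Gda was -0.39 ± 0.20 (SE, edgeR with sex, p = 0.0625, adjusted p = 0.864). Without STIP1+NSE replicate 2 it was -0.30, and without CRMP1+CRMP2 replicate 3 it was -0.43 (adjusted p = 0.825 and 0.909). Xdh was at -0.63 ± 0.28 (p = 0.0334, adjusted p = 0.864), with 0.165 to 0.659 CPM in the CRMP1+GDA animals. It passed the filter of over 1 CPM in 2 samples only through animals of the other exposed groups. The value is therefore a description and does not support a difference. Here 0 of 7 members and 0% of 12698 genes were called, with 313 higher and 354 lower genes when p was left unadjusted at the 0.05 threshold, and 0 calls by DESeq2. Leaving out litter 9_8 gave 1109 higher and 1614 lower genes at that threshold and 2 called genes.

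CRMP1+CRMP2 was the exposed group with a called member. Hprt1 ran from 31.8 to 58.1 CPM in the 8 animals, with a median of 46.3, and from 45.1 to 65.4 CPM in the 24 controls, with a median of 54.0. The groups overlapped, with 7 of the 8 animals below the median of the 12 same-series controls. Of the 8, 5 lay below the lowest of those 12 (47.3 CPM) and 3 below all 24 controls. The share of all genes with such counts was not taken. The log2 fold change of Hprt1 was -0.24 ± 0.07 (SE, edgeR, p = 0.00221, adjusted p = 0.0486). The call rested on litters 9_6 and 9_11. Without litter 9_6 the adjusted p was 0.466 at a log2 fold change of -0.15, without litter 9_11 it was 0.158 at -0.20, and without CRMP1+CRMP2 replicate 3 alone it was 0.231 at -0.17. Within the MAR_C3 series the adjusted p was 0.161 at -0.25, and it was 0.392 with counts summed per litter and 0.137 with litter as a random effect (limma).

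Thus 1 of 7 members was lower in CRMP1+CRMP2 and 0 were higher, beside 11.4% of 12691 genes called there. That share rested on the same litters, with 1445 genes called over all animals, 41 without litter 9_6, 205 without replicate 3, 799 without litter 9_11 and 2889 without litter 9_16. It was 127 genes within the MAR_C3 series, 33 with litter as a random effect and 0 with counts summed per litter, where 728 higher and 844 lower genes had an unadjusted p under 0.05. Gda ran from 15.5 to 73.6 CPM with a median of 48.8, and its log2 fold change was -0.45 ± 0.19 (SE, p = 0.0271, adjusted p = 0.152 by edgeR). Without litter 9_6 it was -0.24 (adjusted p = 0.673) and without litter 9_16 it was -0.59 (adjusted p = 0.062). The other 5 members ran from -0.14 (Adk) to 0.34 (Ada, SE 0.18, p = 0.0607), and the median over the 7 was -0.11, beside 0.0073 over all genes tested. CRMP1+CRMP2 replicate 3 was the lowest of 43 MAR_C3 animals for Gda, Hprt1 and Pnp. It was also the highest of the 43 in the summed cortical and hippocampal neuron markers (1841 CPM) and low in thalamus and habenula markers (215 CPM, median of the series 742). Whether the makeup of the slice had a part in these values was not tested.

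The other 2 patterns had no called member. In LDHA/B+CRMP1+STIP1, Gda ran from 29.4 to 84.6 CPM with a median of 63.0, inside the control range except for 2 animals below it. Its log2 fold change was -0.07 ± 0.11 (SE, n = 25 and 24, p = 0.503, adjusted p = 0.951 by edgeR). Pnp was the only member with an unadjusted p under 0.05, at -0.11 ± 0.05 (p = 0.0275, adjusted p = 0.623). The rest ran from -0.08 (Hprt1) to 0.08 (Ada), and 0 of 7 members were called by edgeR and by DESeq2, beside 0.0157% of 12700 genes.

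In STIP1+NSE, Gda ran from 52.4 to 145 CPM with a median of 66.7. Only replicate 2 lay above the controls. The log2 fold change was 0.13 ± 0.19 (SE, p = 0.491, adjusted p = 1.00 by edgeR), and it turned to -0.10 without replicate 2 and to -0.16 without litter 9_2. No member had an unadjusted p under 0.05, with values from -0.12 (Pnp) to 0.15 (Xdh). Again 0 of 7 members were called by edgeR and by DESeq2, beside 0.0474% of 12660 genes. These 4 comparisons share their controls and are not independent of each other.

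Within the MAR_C3 series the mean level of Gda was 74.2 ± 30.1 CPM (SD, n = 8) in STIP1+NSE, 63.1 ± 12.8 (n = 12) in controls, 59.3 ± 10.4 (n = 9) in LDHA/B+CRMP1+STIP1, 50.1 ± 18.4 (n = 8) in CRMP1+CRMP2 and 48.1 ± 6.57 (n = 6) in CRMP1+GDA. No neighbours in this order differed by more than the larger of their SDs.

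Over all 47 exposed animals no member passed the threshold, and Pnp and Hprt1 had an unadjusted p under 0.05. Pnp ran from 29.2 to 57.0 CPM (median 41.9) in exposed animals and from 34.2 to 59.7 (median 44.8) in controls, with a log2 fold change of -0.11 ± 0.05 (SE, p = 0.0252, adjusted p = 0.411 by edgeR). Hprt1 was at -0.10 ± 0.04 (p = 0.032, adjusted p = 0.437). Gda was at -0.13 ± 0.11 (p = 0.235, adjusted p = 0.691), and at 0.0035 without control litter IgG2. Adk, Aprt and Ada ran from -0.0042 to 0.09. Xdh did not pass the filter of 1 CPM in 8 samples. Thus 0 of 6 members tested were called by edgeR and by DESeq2, beside 0.0321% of 12477 genes.

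**Figure D3:**
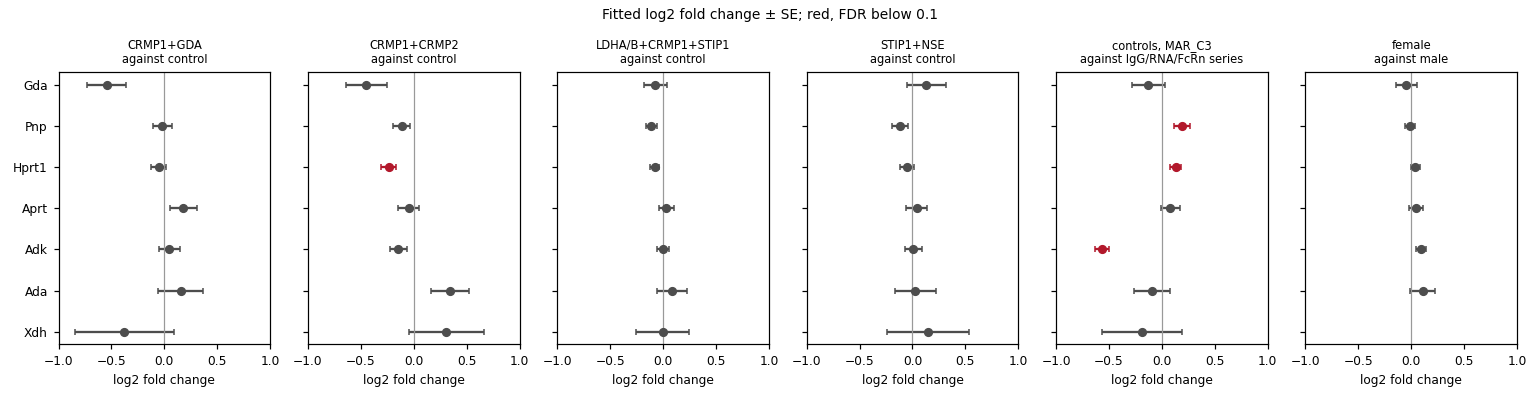
Fitted log2 fold change (edgeR, bars are SE) of each member in 6 comparisons, with red marking FDR below 0.1. Red appears at Hprt1 in CRMP1+CRMP2 (-0.24) and at Pnp (0.19), Hprt1 (0.13) and Adk (-0.56) between the 2 title series of controls, and Xdh is absent from the comparison of the sexes, where it was not tested.

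LDHA/B+CRMP1+STIP1 is the one pattern in both title series, which lets its effect be read apart from the series. Gda was at -0.14 ± 0.16 (SE, n = 16 and 12) in the IgG/RNA/FcRn series and at -0.09 ± 0.12 (n = 9 and 12) in the MAR_C3 series, with adjusted p of 0.988 and 0.952 by edgeR. Without control litter IgG2 the value in the IgG/RNA/FcRn series turned to 0.16. Pnp was at -0.15 ± 0.07 in the IgG/RNA/FcRn series (p = 0.0371, adjusted p = 0.915) and at -0.10 ± 0.09 in the MAR_C3 series (p = 0.263).

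The 2 series called 0.0161% of 12415 genes and 0% of 12570 genes, and 0 of 7 members each by edgeR and by DESeq2. In the MAR_C3 series the unadjusted p was under 0.05 for 382 higher and 324 lower genes, and DESeq2 called 0. The difference between the series was tested as an interaction. Ada had medians of 3.97 CPM in exposed animals and 5.16 in controls in the IgG/RNA/FcRn series, and of 5.48 and 4.39 CPM in the MAR_C3 series. Its interaction was 0.66 ± 0.26 (SE, log2 scale, p = 0.0147, adjusted p = 1.00), and that of Gda was 0.07 ± 0.21 (p = 0.76). Again 0 of 7 members were called by both tools, beside 0.11% of 12700 genes.

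Adk was the member that differed most clearly between the 2 title series. Among controls, it ran from 48.1 to 65.4 CPM (median 56.2) in the IgG/RNA/FcRn series and from 30.9 to 46.1 CPM (median 37.4) in the MAR_C3 series. These ranges did not overlap, but the share of all genes without overlap was not counted. The lack of overlap therefore does not set Adk apart from other genes. Of 12565 genes, 41.5% were called between these controls. The log2 fold change of Adk was -0.56 ± 0.07 (SE, n = 12 and 12, adjusted p = 2.98e-07 by edgeR). With counts summed per litter it was -0.51 (adjusted p = 0.0182). The 16 LDHA/B+CRMP1+STIP1 animals of the IgG/RNA/FcRn series had 45.2 to 70.3 CPM, and over all 71 animals 7 of 43 MAR_C3 animals reached above the lowest of the 28 others.

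Pnp and Hprt1 went the other way, with larger overlap. Pnp ran from 34.2 to 52.7 CPM in the IgG/RNA/FcRn controls and from 37.1 to 59.7 in the MAR_C3 controls, at 0.19 ± 0.07 (SE, adjusted p = 0.0415 by edgeR). Hprt1 ran from 45.1 to 60.4 and from 47.3 to 65.4 CPM, at 0.13 ± 0.05 (adjusted p = 0.0648). Neither call was kept with counts summed per litter (adjusted p = 0.205 and 0.287), with litter as a random effect (0.127 and 0.152 by limma) or without litter 9_5, 9_15, IgG1 or RNA4. Without litter IgG1 the value of Hprt1 was 0.079, and without litter 9_10 the value of Pnp was 0.29. So 3 of 7 members were called, 2 higher and 1 lower in the MAR_C3 series, beside 41.5% of 12565 genes, a share the members did not stand apart from. Gda was at -0.13 ± 0.15 (adjusted p = 0.564) and at 0.18 without litter IgG2. The title series and the regional markers given above differed together, and their parts in the level of Adk cannot be told apart.

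Female and male animals differed little. Adk was at 0.09 ± 0.05 in the 36 females against the 35 males (SE, p = 0.0426, adjusted p = 0.987 by edgeR). Hprt1 lies on the X chromosome and had medians of 53.0 CPM in females and 50.8 CPM in males, a log2 fold change of 0.04 ± 0.04 (p = 0.354, adjusted p = 0.987). Gda was at -0.05 ± 0.10 (p = 0.621). Here 0 of 6 members tested were called by edgeR and by DESeq2, beside 0.0641% of 12477 genes.

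Some genes followed Gda closely from animal to animal. Likeness was taken as the lower of 2 Spearman rho values, over the 28 IgG/RNA/FcRn animals and over the 43 MAR_C3 animals. The 5 most like were Icam5, an adhesion molecule of forebrain dendrites (rho 0.90 and 0.92), Camk2a, a postsynaptic kinase (0.89 and 0.85), Rgs14, known from hippocampal area CA2 (0.92 and 0.81), Phyhip (0.83 and 0.80) and Ak5, an adenylate kinase (0.88 and 0.73). STIP1+NSE replicate 2 was the highest of 43 animals for Icam5 (67.0 CPM), Camk2a (219 CPM) and Ak5 (110 CPM) as well as for Gda. CRMP1+CRMP2 replicate 3 was the lowest of the 43 for all 5 genes. In control litter IgG2, replicate 17 was the highest of 28 for Icam5, Rgs14, Phyhip and Ak5. The 5 genes were picked for their likeness to Gda over these same animals, so shared extremes follow in part from that choice. Littermates share a dam and all values of an animal share 1 library, so these figures are descriptions.

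**Figure D4:**
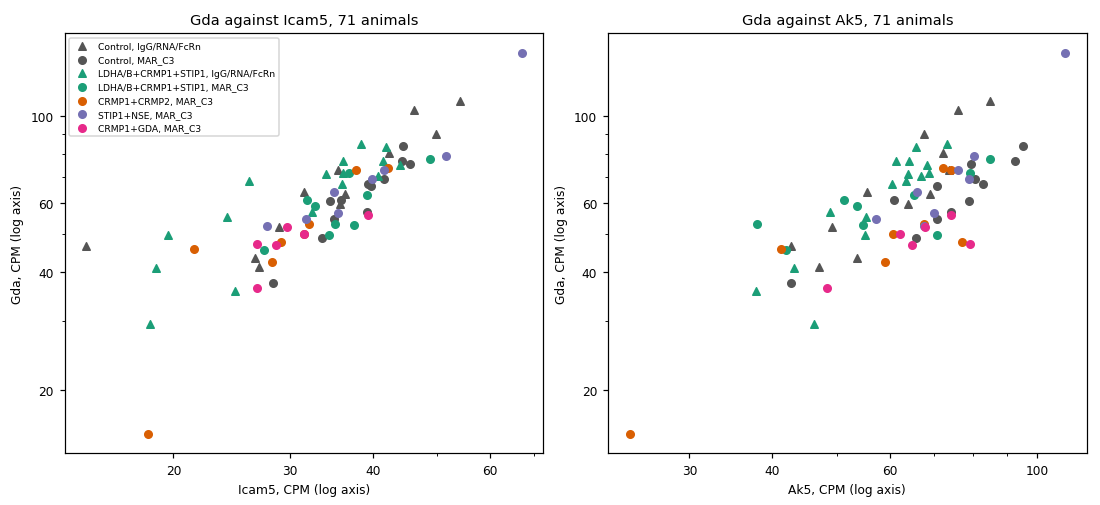
Gda against Icam5 and against Ak5 in 71 animals (CPM, log axes), with triangles for the IgG/RNA/FcRn series, circles for the MAR_C3 series and colours for the groups. Both genes were picked for their likeness to Gda in these animals. Animals high in Gda are high in both genes, up to STIP1+NSE replicate 2 at 145 CPM of Gda and 67.0 CPM of Icam5.

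The other members had other nearest genes. For Hprt1 they were Lyrm9 (0.72 and 0.72) and Sucla2 (0.68 and 0.77), for Pnp Tmem14c (0.70 and 0.75) and Gas6 (0.72 and 0.68), for Adk Arpc2 (0.77 and 0.82) and Fdps (0.76 and 0.75), and for Aprt Oaz1 (0.89 and 0.91) and Hint1 (0.86 and 0.89). The nearest of Ada, Il11ra1 (0.55 and 0.49) and Igsf8 (0.48 and 0.52), were less like it. Among the members themselves, Gda was nearest to Hprt1 (rho 0.48 and 0.47). Adk and Aprt rose and fell together in the MAR_C3 series (0.82) but less in the other series (0.28).

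Levels of the members moved with regional and cell type markers within a title series. The 7 members were set against 12 marker lists in each series, which gave 168 relations, and 35 had an adjusted p under 0.05 by a permutation test of Pearson's r (28 by Spearman's rho, 20 without the 2 animals farthest from the median list score). Gda went with thalamus and habenula markers in the IgG/RNA/FcRn series (r = 0.74, rho = 0.72, adjusted permutation p = 0.00112 for each, r = 0.78 without the 2 animals). There it went against cortical and hippocampal neuron markers (r = -0.64, rho = -0.66, adjusted permutation p = 0.00229 and 0.00299, r = -0.63). In the MAR_C3 series it went with hypothalamus markers (r = 0.58, rho = 0.52, adjusted permutation p = 0.0014 and 0.00476, r = 0.52). Ada in the MAR_C3 series went against thalamus and habenula markers (r = -0.67, rho = -0.81, adjusted permutation p = 0.00084 and 0.00112, r = -0.54). The MAR_C3 animals gave Gda an r of 0.068 with thalamus and habenula markers and of -0.27 with cortical and hippocampal neuron markers (adjusted permutation p = 0.779 and 0.201). The summed thalamus and habenula markers were low in the IgG/RNA/FcRn controls, at 55.4 to 133 CPM, against 296 to 987 CPM in the MAR_C3 controls. Permutations shuffled animals, and littermates are not independent. Over litter means 14 of 168 relations had an adjusted permutation p under 0.05 by r and 10 by rho. Of the relations named, that of Ada with thalamus and habenula markers passed by both (adjusted permutation p = 0.0115 and 0.0112), and that of Gda with hypothalamus markers passed by r (0.0202) but not by rho (0.184). Those of Gda with thalamus and habenula (0.22 by r, 0.184 by rho) and with cortical and hippocampal neuron markers (0.197 and 0.201) did not pass over the 7 litters of the IgG/RNA/FcRn series.

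The other genes of purine metabolism were read as a list of 56, of which 53 were in the table and 47 were tested in every comparison. In CRMP1+CRMP2 0 were higher and 3 lower, against the 11.4% of all genes. They were Gmpr, GMP reductase (-0.34 ± 0.10, adjusted p = 0.0472), Prps1, which makes phosphoribosyl pyrophosphate (-0.15 ± 0.04, adjusted p = 0.0475), and Ak5 (-0.37 ± 0.12, adjusted p = 0.0751), all log2 fold changes with SE from edgeR. Prps1 had 114 to 143 CPM (median 133) there and 123 to 162 CPM (median 147) in controls, with overlap. None of the 3 was called without litter 9_6 (adjusted p 0.469 to 0.503), without replicate 3 (0.195 to 0.282), within the MAR_C3 series (0.104 to 0.278), with litter as a random effect (0.142 to 0.251) or with counts summed per litter (0.392 to 0.394). Without litter 9_11 Gmpr alone was called, and without litter 9_16 4 of the 47 were higher and 8 lower. The median of the 47 was -0.0090, beside 0.0073 over all genes. In the other 3 patterns edgeR called 0 of 47, and the unadjusted p was under 0.05 for 1 higher and 1 lower gene with CRMP1+GDA, for 1 and 1 with LDHA/B+CRMP1+STIP1, and for 0 with STIP1+NSE.

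Between the control series 8 of the 47 were higher and 10 lower in MAR_C3, beside the 41.5% given above, and with counts summed per litter 4 were higher and 3 lower, beside 15.6%. The 5 with the smallest p were Adora1, Adora2a, Ak4, Ampd3 and Entpd3. Adora2a, an adenosine receptor gene known from striatum, had 10.4 to 82.1 CPM in the IgG/RNA/FcRn controls and 3.98 to 31.6 CPM in the MAR_C3 controls (log2 fold change -2.20 ± 0.33, adjusted p = 2.16e-05 by edgeR). Adora2a is also among the 8 striatum markers summed above, so its difference and theirs are not independent. Adora1, another adenosine receptor gene, went the other way, with 32.4 to 42.8 and 39.0 to 52.5 CPM (0.31 ± 0.05, adjusted p = 1.61e-05). Ak4 was at 0.76, the AMP deaminase gene Ampd3 at 0.62 and the ectonucleotidase gene Entpd3 at -0.79. By step of the pathway, 2 of 10 de novo synthesis genes were higher and 4 lower, and the medians of the 5 lists lay between -0.03 and 0.13.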

How the data were processed

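Counts per gene that the authors deposited were made, per the labels and the study's methods, from poly-A selected RNA (paired reads, STAR 2.5.4b, build rn7, featureCounts). Counting options, and so the use of strand and of multiply mapped reads, are not given in the sources used here. Of counts from 1 to 9, 74.54% were even, so halved counts were tried. The other deposited value is exon length in bases. All 71 columns were used. The members and gene lists were chosen with earlier results of these data known. Genes named are the 7 members, Gda in every comparison and another member where its unadjusted p was under 0.05 (others as ranges or for an overlap), at most 5 other purine genes at FDR < 0.1, and the genes most like each member.

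CPM and RPKM were computed with TMM factors (0.9452 to 1.072) and log2 CPM with a prior count of 2. edgeR 4.0.16 (robust quasi-likelihood, Benjamini-Hochberg over all genes tested, FDR < 0.1) was fitted in R 4.3.3. Exposure contrasts used 1 surrogate variable (sva 3.50.0), fits within a series and of controls used sex, the interaction also title series, and the comparison of the sexes autoantibody label and title series. Genes needed 1 CPM in 8 samples over all exposed animals and for sex, and over 1 CPM in 2 samples otherwise, and 1 CPM is 24.88 to 36.23 counts. Animals were the replicates, and littermates share a dam, so p-values also hold litter differences. The study also grouped litters into collection cohorts, which the labels do not give, so no cohort term was fitted and their part was not tested. Alternatives were DESeq2 1.42.0, median-ratio size factors, no filter, halved counts, litter as a random effect (limma 3.58.1), litter sums, other covariates and leaving out litters. Leaving out either of 2 outlying animals or control litter IgG2 was chosen after seeing the data. Simulated data with 200 changed genes gave 200 found in the comparison of CRMP1+GDA with controls (12641 genes), with 19 false among 219 calls. The raised genes there had a median log2 fold change of 0.998, and genes low in counts were not changed. Counts were drawn with the same dispersion for all genes and without litter differences. The simulation therefore does not give the power for smaller changes or the error rate with littermates.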

Additional observations from a re-analysis of the deposited data

Results flagged for a closer look

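Among 28 combinations of gene and group of 4 to 10 animals, 2 held an animal far from the others by Dixon's test, and chance flags about 1 in 20. Gda was given by animal because it was known to have outlying animals, so its value is a description that the test does not support. It was at 145 CPM in STIP1+NSE replicate 2 (litter 9_2, female), while the other 7 animals ran up to 78.9 CPM. Xdh was at 1.22 CPM in CRMP1+CRMP2 replicate 4 (litter 9_6, male), from few reads.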

How the results depend on the processing

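No paired analysis was possible because replicate numbers follow accession order and, between exposure groups, each litter holds 1 group. The sexes share litters, and with litter as a random effect (limma) the comparison of the sexes called 0 members, with Gda at -0.04 and Adk at 0.10 (adjusted p = 0.94 and 0.585). For Gda, 125 of 133 alternatives kept the direction and the side of FDR < 0.1. Gda was uncalled in every main fit, so keeping that side does not measure how steady its values are. The log2 fold change of Gda in CRMP1+GDA lay between -0.64 and -0.36 and against the other exposed animals between -0.44 and -0.30. No fit of CRMP1+GDA against controls left out litter 9_25, the MAR_C3 control litter with the highest mean of Gda, so that dependence was not tested. With control litter IgG2 left out, chosen after seeing the data, Gda turned to 0.0035 in all exposed animals, 0.10 in LDHA/B+CRMP1+STIP1, 0.16 in that pattern's IgG/RNA/FcRn series and -0.24 in the interaction. Leaving out 1 litter or animal gave Gda -0.59 to -0.24 in CRMP1+CRMP2 (called only without litter 9_16), -0.16 to 0.25 in STIP1+NSE (-0.16 without litter 9_2, -0.10 without replicate 2) and -0.29 to 0.18 between control series (0.18 without litter IgG2). The number of members called in CRMP1+CRMP2 was 0 within the MAR_C3 series, with litter sums and with litter as a random effect, and 0 to 3 with 1 litter or animal left out. Between control series it was 1 with litter sums and with litter as a random effect, and 1 to 3 with 1 litter left out. Of the marker relations, 35 passed in the whole series and 20 without 2 animals each. The causes were not tested. The 4 other calls (Hprt1 in CRMP1+CRMP2, and Adk, Hprt1 and Pnp between control series) had 54 alternatives, of which 36 kept the call and 18 lost it. Another 7 results named without a call stayed uncalled in 79 of 79 alternatives. Many alternatives called few genes or none, so that count does not measure how steady these results are. Xdh is limited by its depth of 1 to 36 reads.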

Other observations

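Gda was also set out by sex within litters, a view chosen after its values were seen and given without a test. In all 4 LDHA/B+CRMP1+STIP1 litters of the IgG/RNA/FcRn series every male was above every female. Males there ran from 49.6 to 84.6 CPM with a median of 75.8, and females from 29.4 to 71.2 CPM with a median of 56.03. This held in 1 of 3 control litters of that series. Litters of the IgG/RNA/FcRn series held 2 males and 2 females each. Each MAR_C3 litter with both sexes held 1 male and 1 female, so it gives a single pair. The male was below the female in 2 of 2 such control litters, 3 of 4 LDHA/B+CRMP1+STIP1 litters and 3 of 4 STIP1+NSE litters. The same held in 2 of 3 CRMP1+CRMP2 litters and 1 of 2 CRMP1+GDA litters.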
